A study of Arabidopsis thaliana with 18 samples.

Results

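Trimethylation of lysine 4 on histone H3 (H3K4me3) was compared between shoot apices of wild-type Arabidopsis thaliana and of the chr4 mutant over every H3K4me3 peak on the 5 nuclear chromosomes, 15992 of the 16032 H3K4me3 peaks and of the 26260 peaks in the deposited tables of both histone marks. The 40 H3K4me3 peaks on the organelle genomes were set aside. The H3K4me3 groups were wild type (WT, 3 biological replicates) and chr4 (3 biological replicates), both from plants 5 weeks old that were kept at 21 °C with 8 h of light and 16 h of darkness per day. Tissue enriched for the shoot apical meristem was used, so both groups also hold young leaf and stem cells. The labels give no allele, accession or harvest hour. Chromatin of both genotypes was also precipitated for H3K27me3, the Polycomb mark, and for histone H3, which made 18 samples in 6 groups.

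H3K4me3 sits on the first nucleosomes of transcribed genes, where SET-domain methyltransferases working with the COMPASS complex place it. JmjC and LSD1-type enzymes remove it, and proteins with PHD fingers bind it. CHR4, also called PKR1, is an ATP-dependent chromatin remodeller of the CHD family and a close relative of PICKLE (PKL). In the shoot apex H3K4me3 marks housekeeping and photosynthesis genes as well as the regulators of meristem, leaf and flowering programmes that are on in some of the cells.

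Each peak had 1 value per measure for a pool named control and 1 for a pool named treat, and each pool holds the 3 replicates of a genotype. No source used here says which pool is the mutant, so all ratios are treat over control and carry no genotype. With 1 value per pool the spread between replicates is unknown, as is the depth, and fewer cells carrying the mark cannot be told apart from less mark per cell. A peak was called where the false discovery rate (FDR) in the authors' deposited table was under 0.05 and the pools differed at least 1.5-fold in the same measure. Total signal and height are in the authors' own units, and width is in bp.

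The profile fitted leafy shoot tissue. All 45 nuclear photosynthesis genes examined carried an H3K4me3 peak, and so did all 18 ubiquitously expressed genes that were matched. None of 17 seed maturation genes, 2 of 16 root markers and 2 of 10 pollen markers did. Of 22 meristem and boundary genes, 9 carried a peak. STM, the KNOX gene that maintains the meristem, had a weak peak with a total signal of 7386 in control and 5998 in treat. The stem-cell genes WUS and CLV3 and the boundary genes CUC1, CUC2 and CUC3 had none, so the tissue label rests on few meristem genes in these data.

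The mark was almost the same in both pools at most places, with a small and widespread deficit in the treat pool. Median total signal per peak was 24432 in control and 23269 in treat. The median log2 ratio was -0.08, with quartiles of -0.19 and 0.03, and 10989 peaks were lower in treat against 5003 higher. Within 1.5-fold of each other lay 91.5% of peaks. Median height went from 4079 to 3925 (median log2 ratio -0.06), and median width from 930 to 910 bp (-0.03). The deficit was therefore seen in all 3 measures, most in total signal and least in width. The ratio of summed total signals was 0.959. How the authors scaled the pools is not given, and a genome-wide shift of this size cannot be told apart from scaling.

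**Figure D1:**
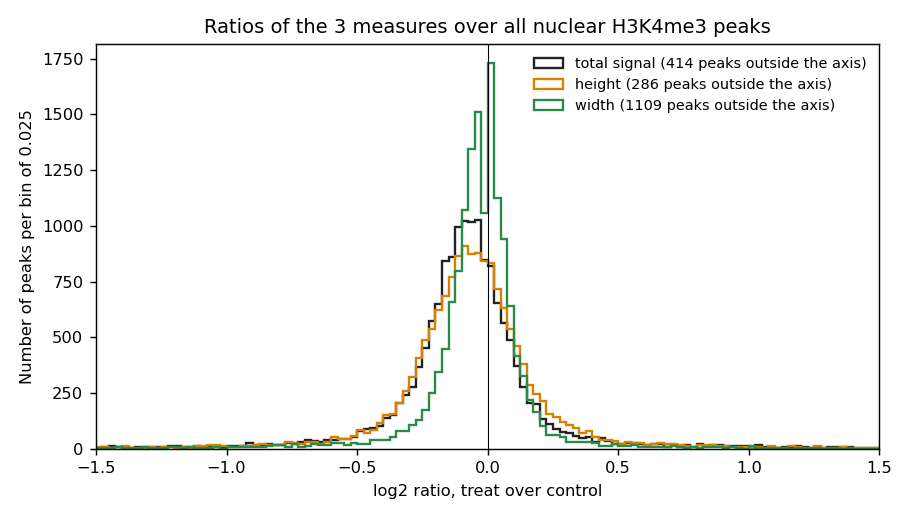
Number of nuclear H3K4me3 peaks (y axis, bins of 0.025) by log2 ratio of treat over control (x axis) for total signal, height and width. The medians lie at -0.08, -0.06 and -0.03, and peaks beyond the axis are counted in the key.

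The pools ranked peaks alike. Spearman's rho between control and treat was 0.960 for total signal over the 15992 peaks, against 0.795 for the 10194 nuclear H3K27me3 peaks of the same genotypes. These are descriptions over peaks that share 2 pools. Log2 ratios of total signal followed those of height (rho 0.81) more closely than those of width (0.62), and height and width ratios were only loosely related (0.35).

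By total signal 954 of 15992 peaks (5.97%) were called, 391 higher in treat (2.44%) and 563 lower (3.52%). By height 536 were called (3.35%), 221 higher (1.38%) and 315 lower (1.97%). By width 1579 passed (9.87%), 677 higher (4.23%) and 902 lower (5.64%). The width FDR took only the values 0 (15195 peaks) and 0.5 (797 peaks of equal width) in the authors' deposited table, so a width call is in effect the 1.5-fold limit alone. The FDR for total signal was under 0.05 at 1032 peaks in the authors' deposited table, where an even spread would put 799.6, and that for height at 597. How the FDR was computed is not given and it need not spread evenly without a difference. The count of 799.6 is therefore a reference only, and no excess or lack of calls is read from it.

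Calls in different measures met at the same peaks. Of the 391 peaks called higher in total signal, 214 were also called higher in height, 340 in width and 177 in both. Of the 563 called lower, 282 were also lower in height, 453 in width and 233 in both. No peak was called higher in one of height and width and lower in the other. Peaks called in total signal but in neither other measure were few, 14 higher and 61 lower.

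**Figure D2:**
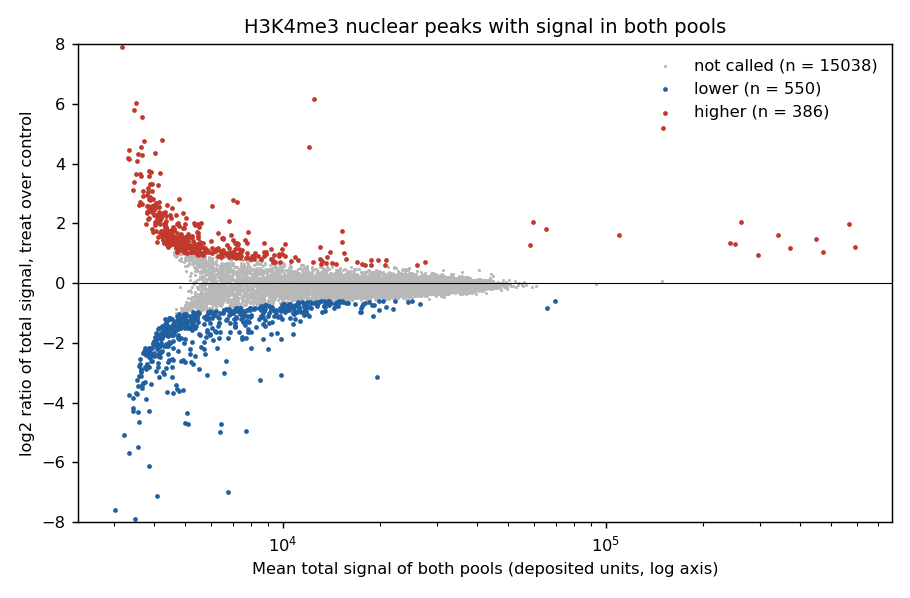
Log2 ratio of total signal (y axis, treat over control) against the mean total signal of both pools (x axis, log scale) for nuclear H3K4me3 peaks above 0 in both pools, coloured by call. The calls form wings at the weak end, and the isolated points beyond 100000 are short peaks, all near ribosomal RNA genes but 1 at AT2G16586; 4 peaks lie beyond the y axis.

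Most called peaks were weak and short. The lowest quartile of mean total signal held 903 of the 954 calls, and 22.6% of its peaks were called, against 0.725%, 0.125% and 0.425% in the next quartiles. Called peaks had a median length of 340 bp (250 bp for higher, 450 bp for lower), and peaks not called had 970 bp. In 62.3% of called peaks one pool had a width of 0, meaning that no peak was delimited in it, against 1.92% of the others. The median called peak differed 2.58-fold between its pools, with total signals of 2944 and 7774 in the lower and higher pool.

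Length sorted the calls more finely. Of the 697 peaks up to 200 bp, 46.9% were called and the median log2 ratio was 0.19, the only length class with a median above 0. The share fell to 34.0% between 200 and 500 bp, 10.6% between 500 and 800 bp and 1.37% between 800 and 1000 bp. From 1600 to 2500 bp 4 of 1274 peaks were called, all lower, and none of the 83 peaks over 2500 bp was. The quartiles of the log2 ratio drew in from -0.84 and 0.96 in the shortest class to -0.11 and -0.01 in the longest. Long peaks therefore showed the small deficit with almost no scatter.

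**Figure D3:**
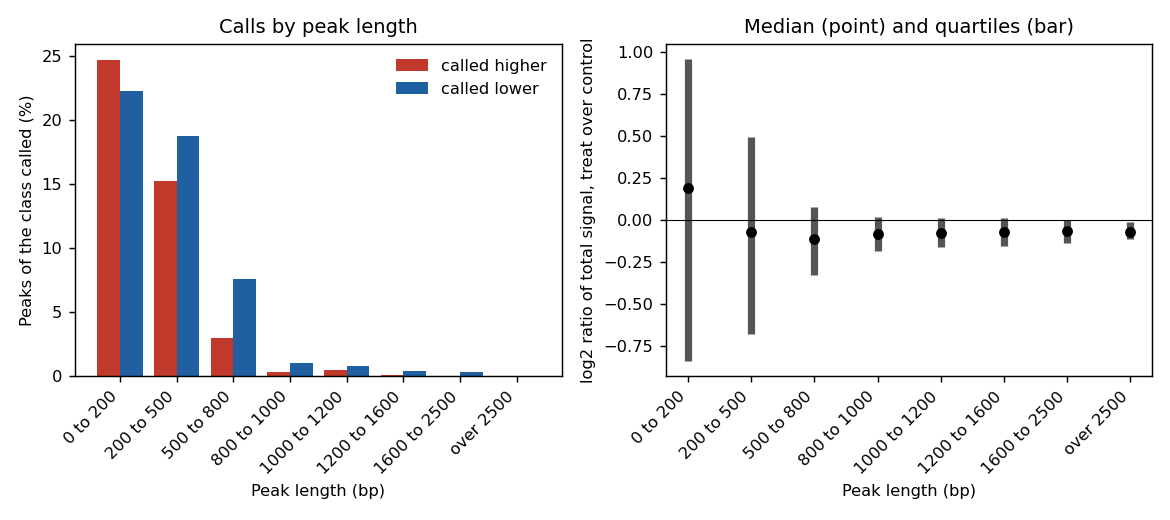
Left, share of peaks called higher or lower in total signal (%) by peak length in bp. Right, median (point) and quartiles (bar) of the log2 ratio of total signal, treat over control, in the same classes; the called share falls from 46.9% to 0 and the quartiles close in on a median near -0.07.

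The deficit spread evenly over the genome. The 5 chromosomes had medians between -0.07 and -0.08, and of the 112 windows of 1 Mb with at least 20 peaks, 110 had a median below 0. One exception was 3 to 4 Mb on chromosome 2, with 103 peaks of a median length of 190 bp, of which 79 were higher in treat (median log2 ratio 0.23). That stretch is known to hold a large copy of the mitochondrial genome, and the 38 H3K4me3 peaks on the mitochondrial genome itself had a median log2 ratio of 0.23, with 29 higher in treat. The part that mitochondrial DNA has in the window was not tested. The other exception was 14 to 15 Mb on chromosome 3, where 10 of 28 peaks were called, 8 of them higher. Of these 28 peaks, 14 lay within 10000 bp of the rRNA genes treated next, and they held 7 of the higher calls and the 2 lower ones.

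The highest nuclear H3K4me3 signals were at ribosomal RNA genes. Within 10000 bp of the 4 nuclear rRNA genes in the gene table, at the tip of chromosome 2 and on chromosome 3, lay 21 peaks of 60 to 240 bp, 13 called higher and 2 lower. Their signals reached 360575 in control and 903449 in treat, and no peak elsewhere passed 100000 in control. In treat 1 peak elsewhere did, at AT2G16586 (chromosome 2, 7191200 to 7191380), which was called higher with 54085 in control and 166075 in treat, 3.07-fold. Its neighbour (7190680 to 7190830), which overlapped no protein-coding gene by 150 bp or more, was called higher with 23083 and 96053. Of the 21 peaks near rRNA genes, 1 (chromosome 3, 14201880 to 14202010) went from 231018 to 903449, or 3.91-fold. Another (chromosome 2, 9600 to 9840) went from 239068 to 660211, or 2.76-fold. The 21 peaks had a median log2 ratio of 1.18, and H3K27me3 in the same places had a median of 1.48, with 14 of 16 peaks higher in treat. Both antibodies thus read higher in treat over these repeats, and the number of rDNA copies in either pool was not tested. Because the repeats exist in many copies and the table has few, their values are uncertain.

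Peaks with little or no overlap of a coding gene were called more often. Of 523 peaks that touched no protein-coding gene 14.9% were called, and of 492 that touched one by under 150 bp 49.6% were. The latter had a median length of 90 bp, and a peak shorter than 150 bp cannot reach that overlap even inside a gene. Position and length thus cannot be told apart in this class, and of all peaks up to 200 bp 46.9% were called. On exactly 1 gene 4.61% of 13383 peaks were called, and on 2 genes 0.913% of 1534. The 786 H3K4me3 peaks over an H3K27me3 peak were weak, with medians of 9373 in control and 9554 in treat, and 21.5% were called against 5.16% elsewhere. Called peaks of either direction had H3K27me3 mostly lower in treat beneath them (58 of 84 under higher peaks and 52 of 85 under lower ones), as had the uncalled (463 of 617).

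Each gene was linked to the peak with the longest overlap of its body, 150 bp or more. Of 27444 nuclear protein-coding genes 16043 (58.5%) had one, with a median log2 ratio of -0.08. Among them 567 (3.53%) had a called peak, 190 higher (1.18%) and 377 lower (2.35%). Of the 575 genes with 2 or more peaks, 105 had a called peak, and in 97 of these another peak of the same gene was not called. A call on such a gene therefore describes a stretch of it rather than the gene.

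The CHR4 gene itself was one of these. Its stronger peak (chromosome 5, 18092650 to 18093880) had a total signal of 25726 in control and 24676 in treat and was not called (the authors' deposited table gave an FDR of 0.708). Height went from 5809 to 4535 (FDR 0.0827 in the authors' deposited table) and width from 920 to 1130 bp, and neither was called. The FDR was 0.000919 for a local gain and 0.00568 for a local loss within that peak in the authors' deposited table. Both were under 0.05 at 368 peaks in all. The weaker peak lies within the gene (18083410 to 18084040) and had 10629 in control and nothing in treat, where signal, height and width were all listed at 0. Its FDR was 0.00125 in the authors' deposited table.

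No peak beside the gene was listed at 0 in treat, and local gain and loss were not examined there. On one side the peaks at OSB3 (37962 in control, 38378 in treat) and RAN1 (30333 and 27623) were not called, and on the other that at AT5G44820 (8786 and 9805) was not. A short H3K27me3 peak inside CHR4 (18087600 to 18087730) was also listed at 0 in treat, against 8205 in control. The targeted gene thus held 1 place per mark with signal in control alone. No genotype was read from this.

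Only 13 peaks were listed at 0 in treat and 5 in control, so the CHR4 peak belongs to a small class. In the treat class 7 overlapped a protein-coding gene by 150 bp or more, and the others were too short to reach that overlap wherever they lay. Control signals ran from 6422 to 12929 over all 13. The highest was at XXT4, which encodes a xyloglucan xylosyltransferase, with 12929 in control and 0 in treat. AMT2, an ammonium transporter gene, had 7329 and 0. In the other direction AT1G75945 (chromosome 1, 28515100 to 28516130) was listed at 0 in control and had 30506 in treat, with a height of 5423 and a width of 1030 bp. That is a strong peak of normal length in one pool and none in the other, and no other peak listed at 0 came near it.

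Among genes with a symbol and a signal in the higher pool of at least the lower quartile (16784), 8 were called higher. CHR23, a SWI2/SNF2 remodeller and thus from the same superfamily as CHR4, led them with 6973 in control and 23553 in treat, 3.38-fold, and its width went from 510 to 750 bp. PHT3;3, a mitochondrial phosphate transporter, had 8523 and 22101, or 2.59-fold. The others lay between 1.5- and 1.70-fold. They were WIT1, which anchors proteins at the nuclear envelope (14677 and 24937), LpxB of lipid A synthesis (12876 and 21166), the potassium transporter KUP6 (13799 and 21318), the endoplasmic reticulum stress sensor IRE1A (14834 and 22658), the methionine methyltransferase MMT (16419 and 24960) and PDE345, a plastid aldolase (20876 and 31396). In 7 of the 8 even the higher pool was below the median of 24972, and PDE345 alone was above it.

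Falls were more numerous, with 18 such genes, of which the 8 largest follow. The peak shared by MRD1 and the meiotic crossover gene HEI10 (chromosome 1, 19963070 to 19964800) had 35190 in control and 3999 in treat, 8.80-fold lower, and shrank from 1700 to 510 bp. It was the largest fall at a strong gene peak. PELPK1, a repetitive cell wall protein, had 17641 and 2094, 8.43-fold lower, with no width left in treat. HDG12, an HD-ZIP IV factor of the epidermis, had 17601 and 8952, and the uracil DNA glycosylase gene UNG had 17693 and 9293. GA2, which encodes ent-kaurene synthase at an early step of gibberellin synthesis, had 18473 and 10369, 1.78-fold lower. The invertase gene A/N-InvB (17360 and 10442), the glycosyl hydrolase gene GH9B18 (23586 and 14303) and INDH, needed to assemble mitochondrial complex I (32842 and 20418), fell 1.61- to 1.66-fold. MRD1/HEI10 and INDH were the only falls with a symbol that reached the median signal.

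**Figure D4:**
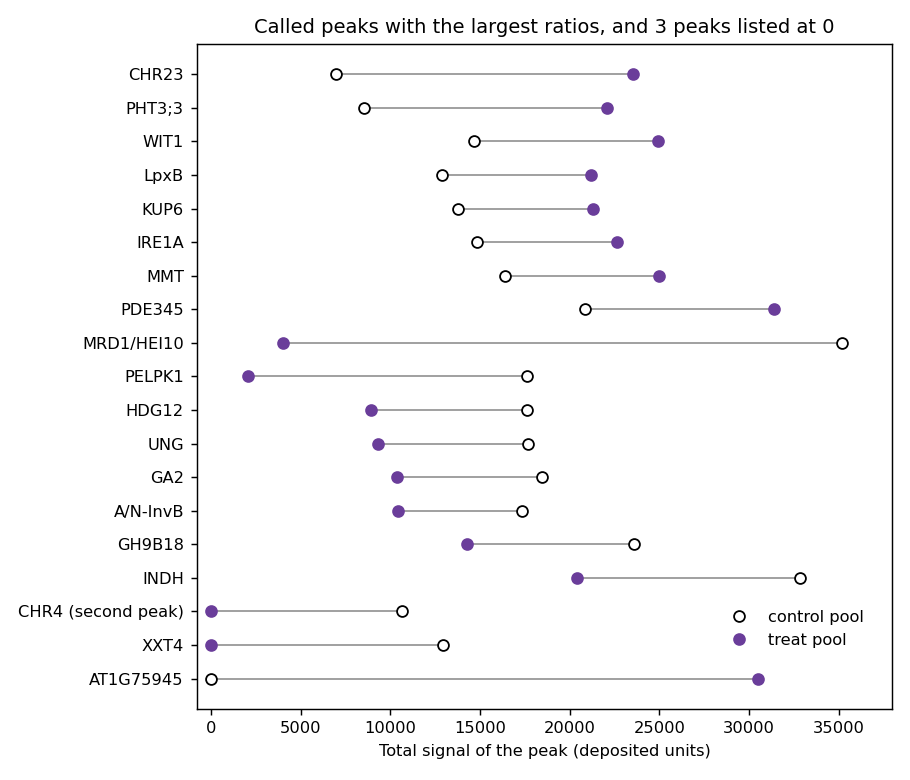
Total signal (x axis, deposited units) in the control pool (open) and the treat pool (filled) at the 8 largest rises and 8 largest falls with a symbol, and at 3 peaks listed at 0 in one pool. MRD1/HEI10 spans 35190 to 3999, and the second CHR4 peak spans 10629 to 0.

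Further falls left next to nothing in treat. CYP705A19, a cytochrome P450 gene, had 13450 in control and 104.5 in treat over a peak of 1040 bp. HAF2, a histone acetyltransferase of the TAF1 family, had 12379 and 475.9. The opposite pattern, with no width in control, was seen at UBC11, a ubiquitin-conjugating enzyme gene (1926 and 12531), at the arabinogalactan protein gene FLA13 (3394 and 10459) and at OFP12 of the OVATE family (4213 and 10389). H3K27me3 lay over the last pair and went from 22473 to 17589 at FLA13 and from 29771 to 15370 at OFP12. It was also lower in treat beneath most uncalled H3K4me3 peaks that lay over it (463 of 617).

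Some peaks were called in height but not in total signal. ETT, the auxin response factor that patterns leaf and carpel polarity, went from 3328 to 5548 in height (1.67-fold) while its total signal went from 20462 to 28769, which was not called. TIFY7, the jasmonate repressor JAZ9, went from 2930 to 4583 (1.56-fold). The peak shared by AT4G02400 and the poly(ADP-ribose) polymerase gene PARP2 fell from 4858 to 3139. The exocyst gene EXO70G2 (2981 and 1824) and the plastid glyceraldehyde-phosphate dehydrogenase gene GAPCP-2 (3129 and 1839) were called lower in height only.

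Large differences in width were seen at further genes, some of them also called in other measures. The peak of RR16, a type-A cytokinin response regulator, narrowed from 1990 to 240 bp as its height went from 1569 to 735.5. BDG1, needed for the cuticle, narrowed from 950 to 260 bp with nearly equal heights of 913 and 897.2. SBP2, a selenium-binding protein gene, narrowed from 1250 to 260 bp. RR16 was also called lower in total signal (9731 and 3091) and height, and SBP2 in total signal (9158 and 3593), while BDG1 was called in width alone. Wider peaks in treat included the calmodulin-like gene TCH3 (160 to 860 bp), the ferric reductase gene FRO6 (480 to 1010 bp), the calmodulin-binding protein gene EDA39 (780 to 1370 bp) and AOC2 of jasmonate synthesis (620 to 1070 bp). At EDA39 heights were 1505 and 1533, so the pools differed in breadth and hardly in summit. FRO6 was also called higher in total signal (5120 and 10388), and TCH3, EDA39 and AOC2 in width alone. All of these had weak summits, below the lower quartile of height in their pool.

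The authors' deposited table also gave an FDR for a local gain and a local loss in each peak. How these were scored is not given. At the 0.05 limit, the authors' deposited table had a local gain at 2413 peaks (15.1%) and a local loss at 4848 (30.3%). For total signal it had 1032. These FDRs need not spread evenly without a difference either, so no excess is read from the counts. Both passed at 368 peaks, of which 3 were called in total signal. Their median log2 ratio of total signal was -0.06, so total signal at these peaks stayed near the general level. One of the 3 lay beside the rRNA genes of chromosome 3 (14197600 to 14197810) and was called lower, with 84364 in control and 55586 in treat. The strongest at a gene with a symbol was at HAM2, a GRAS factor of meristem maintenance, with 51289 and 47590. BTR1L (40371 and 37126), the sulfate assimilation gene APS1 (36063 and 35543) and the peak of ABCG20 and RS2Z32 (37735 and 32557) were next, and the main CHR4 peak was in the same class.

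Among genes with a symbol, the strongest and longest peaks hardly differed. Whether total signal is scaled to peak length is not given. Over all peaks mean total signal followed mean height (Spearman's rho 0.98) more closely than peak length (0.65). Without the limit to a symbol, the short, called peaks at AT3G41762 (307580 in control, 635471 in treat), AT2G16586 and AT2G01008 would rank higher. ASPG1, a guard cell protease gene, had 58128 in control and 54913 in treat, and the arabinogalactan protein gene FLA8 had 57107 and 53882. The plastid dicarboxylate transporter DiT1 (56464 and 54133), the brassinosteroid receptor BRI1 (54570 and 52238) and FLA18 (55246 and 50056) completed the top 5 with a symbol, all lower in treat by 1.04- to 1.10-fold. The longest peak, 3770 bp over LHCB6 of the light-harvesting antenna and 3 neighbours, had 36090 and 38265. BAM2, a CLAVATA1-related receptor kinase gene, had a peak of 3510 bp with 35584 and 31547.

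Genes were then read by role, in 20 lists that held 425 matched genes, 306 with a peak. In total signal 10 were called higher and 9 lower, 6.21% of 306 beside 3.53% of all genes with a peak. All 19 lay in the lowest quartile of mean signal, and 8 had a width of 0 in a pool. The lists differ in typical signal, so these shares say nothing particular about them. The same holds for the count of calls in each list below, also where none was called. Recentring on the median of all peaks moved every ratio up from a median of -0.08 and turned list medians between -0.08 and 0 positive, for example to 0.03 for the ubiquitously expressed and for the auxin genes, so the sign of such a median depends on the scaling.

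No call fell on the enzymes of the mark itself, but only 3.53% of all genes with a peak were called. In lists this small, having no call says nothing particular about them. None of 10 H3K4 methyltransferase and COMPASS genes with a peak was called, with a median log2 ratio of -0.07 and 9 lower in treat. ATXR3, the main enzyme that trimethylates H3K4, had 30999 in control and 30371 in treat, and ATX2 had 37737 and 31177. The 8 histone demethylase genes had a median of -0.14, none called. JMJ14, an H3K4 demethylase, was lowest of them with 21830 and 16407, and LDL1 had 32672 and 33385. Among these REF6 (32959 and 28096) and ELF6 (28734 and 25394) act on H3K27 rather than H3K4. None of 12 genes for H3K4me3-binding proteins was called (median 0.03). EBS, a PHD reader that delays flowering, had 34346 and 32941.

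Of the CHD remodellers PKL had 26482 and 24713, and CHR5 had 35823 and 30678, neither called. PKR2 had no H3K4me3 peak. Among 18 genes of other remodelling complexes CHR23 was called higher and CHR24 lower (16855 and 10946), with a list median of -0.09. CHR12, the close relative of CHR23, had 25275 and 24610. BRM had 27560 and 28334, SYD had 27874 and 22842, and INO80 had 33775 and 32252. Of the pair CHR12 and CHR23, only CHR23 was called; the difference between them was not tested.

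Genes with strong peaks in leaf tissue had small ratios. Of 45 photosynthesis genes none was called, 27 were higher in treat, and the median was 0.02. LHCB4.1, an antenna protein gene, had 47606 and 47843, and RCA, the Rubisco activase gene, had 27299 and 29549. The 18 ubiquitously expressed genes had a median of -0.04, none called, with ACT2 at 31631 and 29208 and YLS8 at 42964 and 42770. Relative to the median of all genes (-0.08), the photosynthesis genes thus lay 0.10 higher once ratios were recentred.

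Of 18 circadian clock genes with a peak, 2 were called lower and none higher, beside 2.35% of all genes with a peak called lower. Both lay in the lowest quartile of mean signal, where 13.5% of peaks were called lower. The count therefore says nothing particular about the list. The list median was -0.06, with 11 lower and 7 higher. FKF1, a blue-light receptor that acts in the afternoon, had 15514 in control and 4209 in treat, and its width went from 1030 to 430 bp. PRR3, an evening pseudo-response regulator, had 8194 and 3635. Not called but lower were PRR5 (18175 and 12254), LUX (26743 and 18742), TOC1 (22045 and 16403), GI (22185 and 18785) and PRR7 (31098 and 28641). CCA1 (23088 and 21784), LHY (16109 and 16527), PRR9 (21055 and 21956), RVE8 (15009 and 17671) and LNK2 (17957 and 21733) had log2 ratios from -0.08 to 0.28. The others, ZTL (38104 and 36419), RVE4 (33465 and 32258), LKP2 (35855 and 35610), ELF3 (22796 and 23131), CHE (34607 and 35749) and LNK1 (27245 and 28173), lay between -0.07 and 0.05. Many clock genes cycle over the day, and the labels give no harvest hour.

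Floral regulators gave 1 call. Of 18 with a peak it was the floral repressor SMZ of the AP2 family, lower in treat with 12007 and 6452. Of all genes with a peak 3.53% were called, so 1 of 18 says nothing particular about the list. The floral integrator SOC1 had 11736 and 9538, the repressor SVP 31306 and 29018, and CO, the photoperiod activator, 20022 and 22174. AP1, LFY and FLC carried no H3K4me3 peak, so nothing can be said of them. Of 10 SPL genes, the age-pathway factors, SPL15 was called lower (16681 and 11083, in a peak shared with AT3G57910) and SPL11 higher (4760 and 8852). SPL9 had 19646 and 15190, which was not called.

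In meristem and leaf genes, called peaks were faint. KNAT2, a KNOX gene, was called higher with 2988 in control and 6769 in treat over 220 bp. KNAT1 had 4372 and 7669, 1.75-fold, which was not called. AIL6, an AINTEGUMENTA-like factor of organ growth, was called lower with 7532 and 3058, and its relative AIL5 went the other way without a call (3169 and 6062). The stronger peaks of CLV1 (29363 and 27710), REV (28344 and 28653) and TCP4 (35634 and 34651) were not called.

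Cell division genes gave 3 called higher of 33, beside 1.18% of all genes with a peak. All 3 lay in the lowest quartile of mean signal, where 9.13% of peaks were called higher. The count therefore says nothing particular about the list. CDKB2;1 and CDKB2;2, the mitotic cyclin-dependent kinases, had 3175 and 8031, and 2555 and 8332. KN, the syntaxin KNOLLE that builds the cell plate, had 1928 and 6513. All 3 had no width in control and were also called in height. The cyclin and kinase genes CYCB1;2 (3789 and 6489), CYCB2;3 (7714 and 7564), CYCA1;1 (8807 and 5407) and CDKB1;1 (6466 and 6227) were not called, and neither were the replication genes MCM2 to MCM7, so the list median was -0.04 with 21 lower and 12 higher.

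Gibberellin genes were called in both directions, 3 higher and 1 lower of 15, beside 1.18% and 2.35% of all genes with a peak. These calls lay in the lowest quartile of mean signal and say nothing particular about the list. GA2, at the start of gibberellin synthesis, was called lower, as given above. GA20OX1, a late biosynthetic oxidase, was called higher (3041 and 9615), as were GA2OX2, which inactivates the hormone (5647 and 10635), and the DELLA repressor RGL3 (3371 and 9653). The DELLA gene GAI had 52281 and 46918, and the receptors GID1A, GID1B and GID1C were not called; the median of 15 genes was -0.11. No gene was called among 27 auxin (-0.04) and 20 jasmonate genes (0.02), where TIR1 had 49025 and 47565 and MYC2 35002 and 35344. Among jasmonate genes AOC2 (6322 and 10312) and JAZ9 were highest in ratio.

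Rapid stress genes, which respond within minutes to cold, touch and wounding, gave both signs. ZAT10 was called higher (2218 and 8921), and RD29A (6171 and 1211) and CBF3 (7900 and 3752) lower. ZAT12 (7641 and 4431), TCH4 (9568 and 6456) and WRKY53 (9514 and 6868) were lower without a call, and the median of 20 was -0.10. The strongest peaks of the list, at ERF4 (29262 and 28519) and TCH2 (28824 and 26360), were not called. How fast each sample was harvested is not in the labels and was not tested.

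**Figure D5:**
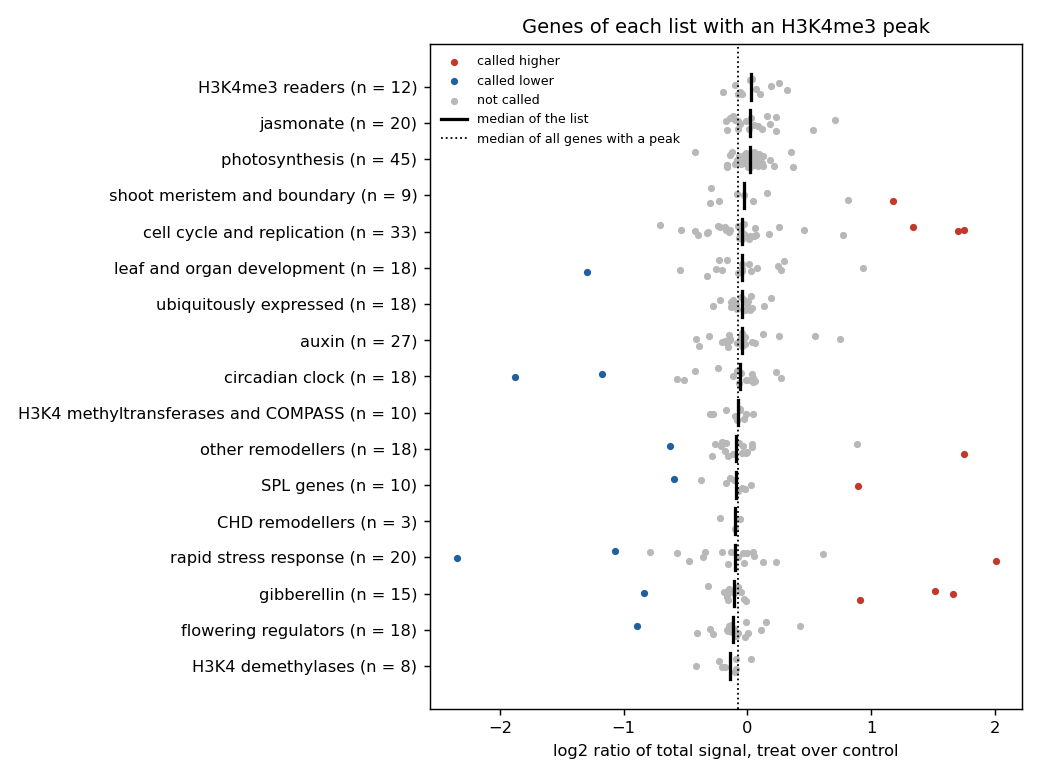
Log2 ratio of total signal (x axis, treat over control) for each gene with an H3K4me3 peak in the lists with at least 3 such genes; bars mark list medians and the dotted line the median of all genes with a peak (-0.08). Medians lie between -0.14 and 0.03. The called genes, at least 1.5-fold by rule, run from RD29A at -2.35 to ZAT10 at 2.01, and some uncalled genes lie further out than some called ones.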

How the data were processed

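Chromatin immunoprecipitation sequencing of H3K4me3 in WT and chr4 apices was analysed from the authors' table of peaks. Per the submitters' processing notes, Bowtie and TAIR10 were used; peak caller, normalization and versions are not given in the sources used here. Per the file headers, the deposited values are, for a control and a treat pool, total signal and height (scores of the authors, unit not stated), width in bp (another unit), log2 ratios, log10 p-values (used as scores, not for calls) and p-value-type FDR columns. Which pool is which genotype is not stated, and the authors pooled replicates, so no test across replicates, interval or depth could be given. How the deposited FDR was computed is not given in the sources used here.

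Log2 ratios were recomputed from the pool columns with a signal of 0 set to 1; no fold is printed there. A call needs a deposited FDR under 0.05 and 1.5-fold. Genes, from a TAIR10.1 gene table whose coordinates are not printed, took the peak covering most of their body (at least 150 bp). Of 452 list symbols 429 were matched and 4 list entries were left out because the symbol names another gene. Named genes were called genes with a symbol, ranked by ratio (8 each way for total signal, up to 5 for height and width) with the higher pool at or above the median. Few qualified, so the lower quartile was used, a choice made after the data were seen. Called list members, the strongest members, 12 fixed genes and the strongest and longest peaks were added. Members and lists were chosen with earlier results of these data known. Scripts (Python 3.11.15, pandas 2.3.3, numpy 2.4.6) were tested on simulated data. Alternatives changed thresholds, measure, centring, filters and gene link. No sequence or motif was analysed here.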

Additional observations from a re-analysis of the deposited data

Results flagged for a closer look

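The peaks outside the nuclear chromosomes, left out of all calls, carried H3K4me3 signal although organelle genomes have no histones. The 38 mitochondrial peaks had median total signals of 7296 (control) and 8774 (treat). The 2 plastid peaks had medians of 690560 and 894399. No unbound control value is in the table, and what produces this signal was not tested.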

How the results depend on the processing

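Calls in total signal (391 higher, 563 lower) came to 119 and 157 at a deposited FDR under 0.01, 221 and 315 with height in place of total signal, 37 and 48 without the lower quartile of the higher pool, and 165 and 360 without peaks under 300 bp. Height calls (221 and 315) came to 53 and 67 at FDR under 0.01, 31 and 41 without the lower quartile, 95 higher without peaks under 300 bp, and 511 and 667 by the fold limit alone, an alternative chosen after seeing the data. Width calls (677 and 902) came to 5956 and 9239 with no fold limit, 32 and 71 without the lower quartile, and 263 and 511 without peaks under 300 bp. Called list genes (10 higher, 9 lower) came to 5 lower at 2-fold, 3 and 1 at FDR under 0.01, 3 lower by height, 1 and 2 without the lower quartile, 17 higher by the fold limit alone, and 0 and 1 where the peak had to cover 50% of a gene. No named call reversed direction, but on recentring uncalled named genes with ratios slightly below 0, such as BRI1, turned positive. Of 64 named calls, 33 were lost at 2-fold, 37 at FDR under 0.01, 16 dropped out without the lower quartile, 3 without peaks under 300 bp and 1 without gene-poor windows, and 3 were lost on recentring. With height in place of total signal 16 of the calls in total signal were lost and 17 were not. The cause was not tested beyond what each filter removes. No paired analysis was possible because the values are pooled; leaving out replicates and the motif search were not run. Without replicates or depth, the reliability of single weak peaks is unknown.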
